A study of Homo sapiens with 4 samples.

Results

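The ICAM family and related adhesion receptors were followed in OVSAYO, an established human line of ovarian clear cell carcinoma (CCC) cells. The set has 10 genes, ICAM1, ICAM2, ICAM3, ICAM4, ICAM5, VCAM1, ALCAM, MCAM, L1CAM and F11R, of 17721 genes that could be named on the array. Its members were taken by name, as every non-control probe whose RefSeq accession belongs to one of these genes, which gave 15 probes with 24 spots of the 41000 probes on the array. Total RNA was measured on 4 single-colour Agilent whole human genome arrays on 1 slide, 1 array for each condition. The cells were transfected with a non-specific control siRNA (NS-si) or with an siRNA pool against Sp1 (Sp1-si), cultured for 40 h according to the labels, and then left unexposed or exposed for 4 h to 0.5 mM CoCl2, which mimics hypoxia (NS-si → CoCl2 and Sp1-si → CoCl2). All 4 groups therefore carried an siRNA and a transfection reagent, and untransfected cells were not analysed here. The comparisons ask which of these receptor transcripts differ with CoCl2, with Sp1 silencing, and in their response to CoCl2 when Sp1 is silenced. Because each condition has 1 array, no test was possible, every ratio compares 2 arrays, and their number sets the limit to the precision.

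Cell adhesion receptors of the immunoglobulin superfamily are membrane proteins with extracellular immunoglobulin domains that hold cells to their neighbours, to leukocytes or to the matrix. The ICAM proteins are ligands of the leukocyte integrins, and ICAM1 and VCAM1 are the classical members that inflammatory cytokines induce through NFκB. ALCAM, MCAM and L1CAM were first known from leukocytes, melanoma and neurons and are also found in carcinomas, and F11R (JAM-A) is a component of epithelial tight junctions. Sp1 is a ubiquitous transcription factor that binds GC-rich promoter elements.

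In outline, L1CAM was several-fold higher in Sp1-silenced cells both without and with CoCl2, and ICAM5 was higher with CoCl2 and with Sp1 silencing on one of its probes. ALCAM was higher with either treatment alone and less so with both, F11R, ICAM2, ICAM3 and ICAM4 had ratios below 1 in size on the log2 scale in each comparison, and ICAM1, VCAM1 and MCAM did not stand well above background anywhere. The targeted transcript, SP1, was lower in Sp1-si cells by a log2 ratio of -3.77 without and -3.87 with CoCl2. VEGFA and HMOX1, which respond to hypoxia-mimicking agents, were higher with CoCl2 in NS-si cells by log2 ratios of 2.34 and 3.73. Epithelial markers (5 of 5 genes) and the clear cell markers PAX8 and NAPSA stood well above background throughout, with log2 ratios of Sp1-si to NS-si of -1.55 for CDH1 and -2.33 for NAPSA. Of other cell types, the leukocyte marker PTPRC, the endothelial markers PECAM1, CDH5, KDR and TEK (4 of 5) and the fibroblast markers COL3A1 and PDGFRB (2 of 4) did not reach that call on any array, whereas the leukocyte markers CD3E, CD14 and ITGAM, and VWF, THY1 and DCN, did so on all. The summed deposited signal per array ranged from 1727 to 2115 for the 4 fibroblast markers and up to 69.6 for the 5 endothelial markers. Nearly all of the fibroblast sum came from THY1, at 1706 to 2089. The samples are cultures of the OVSAYO line, and the source of these marker signals was not tested. Spots well above background numbered 33081 to 34542 of 43376, and 66 to 73 spots per array were flagged as outliers.

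Of the 15 probes, 11 probes of 7 genes were well above background on all 4 arrays, and the 4 probes of ICAM1, VCAM1 and MCAM were well above background on none. A signal is given below as a scaled signal in arbitrary units, which is the deposited signal brought to a common 75th percentile, since that percentile ranged from 977 to 1285 between the arrays. Signals of different probes cannot be set against each other. The log2 ratio of a pair of arrays is the difference of their scaled log2 signals. Its error comes from probes that are spotted 10 times, grouped by their mean signal over the 4 arrays. It is the median SD between spots in the group that matches the signal of the given probe on the dimmer array of the pair. This error does not cover differences between cultures. A probe was counted as higher or lower at a log2 ratio of at least 1 in size with the probe well above background on both arrays. All 11 of the measured probes have 1 spot, and 0 of those spots carried an outlier flag.

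**Figure D1:**
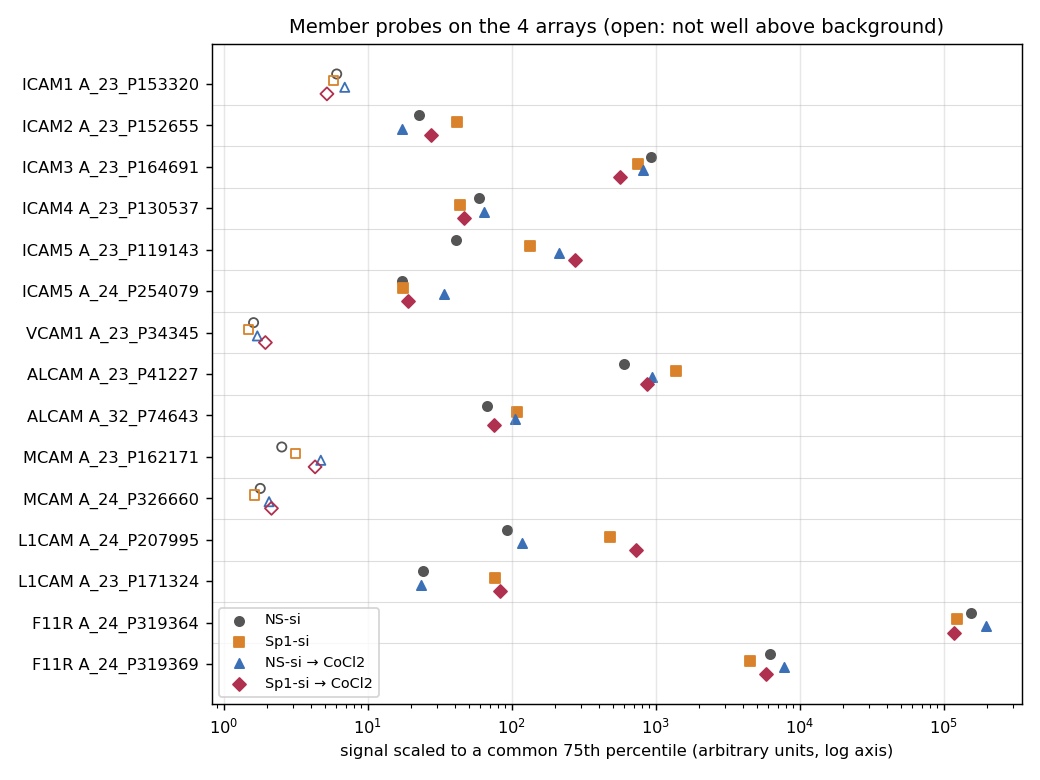
Scaled signal on a log axis of each of the 15 member probes on the 4 arrays, 1 symbol per condition, with open symbols for probes not well above background. On both L1CAM probes the Sp1-si and Sp1-si → CoCl2 arrays lie to the right of the NS-si arrays, while the 4 probes of ICAM1, VCAM1 and MCAM have open symbols throughout.

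ICAM1 encodes the main ligand of the leukocyte integrins on stimulated endothelial and epithelial cells. From its array analysis with CoCl2 and Sp1 siRNA, the paper names ICAM1 among the genes whose activation by CoCl2 depended on Sp1. It then followed the induction of ICAM1 by other methods. Its only probe (A_23_P153320) is spotted 10 times. With NS-si the deposited signals of these spots ran from 4.73 to 9.88 with a median of 5.77, and 0 of 10 were well above background. With Sp1-si they ran from 3.37 to 9.06 with a median of 5.71, and 1 was well above background. With NS-si → CoCl2 they ran from 4.37 to 18.7 with a median of 6.29, with 2 well above background, of which the brightest carried an outlier flag. With Sp1-si → CoCl2 they ran from 3.48 to 12.2 with a median of 5.91, and the 1 spot well above background carried an outlier flag. The spots of the 4 arrays overlapped throughout. The flagged bright spot lay at the same position on both CoCl2 arrays (the fifth of the 10), while the same position was not well above background on the arrays without CoCl2. All 10 spots exceeded the 95th percentile of the negative control spots on every array, which was 1.90 to 2.91, and on every array their median lay below the dimmest spot scored as well above background (6.72 to 10.2). Without flagged spots, the log2 difference between paired spots of NS-si → CoCl2 and NS-si averaged 0.14 with an SD of 0.53 over 9 spots, from -0.63 to 0.96. Between Sp1-si → CoCl2 and NS-si → CoCl2 it averaged -0.41 with an SD of 0.53 over 9 spots. The difference of the CoCl2 ratios averaged -0.54 with an SD of 0.56 over 7 spots. Since nearly all of these spots were not well above background, no difference in ICAM1 mRNA is read from them. The Sp1-dependent activation that the paper names for ICAM1 from its arrays could therefore not be assessed on this probe here.

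The ICAM1 promoter is shown because the study followed this gene and Sp1 is known to bind GC boxes. The 250 bases before its RefSeq start (GRCh38.p14, chr19:10270870-10271119, plus strand, 5′ to 3′) hold 2 GC boxes (GGGCGG on either strand, in capitals), beginning 206 and 59 bases before the start.
ICAM1: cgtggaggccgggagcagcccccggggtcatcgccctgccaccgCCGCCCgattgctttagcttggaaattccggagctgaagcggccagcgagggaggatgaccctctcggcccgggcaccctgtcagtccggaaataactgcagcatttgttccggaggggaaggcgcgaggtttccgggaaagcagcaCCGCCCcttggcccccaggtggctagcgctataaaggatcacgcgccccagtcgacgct
The same window holds the variant NFκB element known from this promoter at 187 bases before the start, which 35 of 35116 RefSeq promoter windows contain (0.0997%, with both strands searched). It holds 0 matches to the hypoxia response element core ACGTG. A GC box is common, being present in 42.6% of those windows. Among the members it was found at 1 or more starts of 6 of the 8 genes with a window (ICAM1, ICAM3, ICAM5, ALCAM, MCAM and L1CAM). These 8 genes have 11 windows, and ICAM3 had a GC box at 1 of its 3 starts. The count of genes is therefore not a like measure to the share of windows. ICAM4 and VCAM1 had 0 GC boxes and 1 match each to the general NFκB consensus, which 9.96% of all windows hold. A match is a description of letters, and binding was not measured on these arrays. For ICAM1 the paper reports, by chromatin immunoprecipitation, binding of Sp1, of hypoxia-inducible factors and of the NFκB subunit RelA to the promoter region. It reports binding of the hypoxia-inducible factor HIF2 upon CoCl2 exposure, and the highest RelA binding with serum starvation and hypoxia. The paper also reports weaker activation by HIF2 in a reporter assay with a known Sp1 site of this promoter mutated. It made 2 Sp1 site mutants, and its text does not say which of them gave the weaker activation. The primers of mutant 2 delete the GC box that begins 59 bases before the start.

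VCAM1, the endothelial ligand of the integrin that pairs ITGA4 with ITGB1, stayed at the level of spots without a target. The deposited signal of its probe (A_23_P34345) was 1.63 with NS-si, 1.45 with Sp1-si, 1.48 with NS-si → CoCl2 and 2.22 with Sp1-si → CoCl2. Each of these values lay below the median of the negative control spots of its array, which was 1.51 to 2.32. MCAM, an adhesion receptor of melanoma and endothelial cells, was not well above background on either probe. The deposited signal of its first probe (A_23_P162171) was 2.56 with NS-si, 3.09 with Sp1-si, 4.08 with NS-si → CoCl2 and 4.90 with Sp1-si → CoCl2, and that of the second (A_24_P326660) was 1.59 to 2.44. For these genes no ratio is given.

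ICAM2 is a constitutive integrin ligand best known from endothelial cells and platelets. Its probe (A_23_P152655) was dim, with a scaled signal of 22.6 with NS-si, 41.6 with Sp1-si, 17.2 with NS-si → CoCl2 and 27.6 with Sp1-si → CoCl2. The log2 ratio of Sp1-si to NS-si was 0.88 ± 0.36 (SD between spots of like signal) and that of Sp1-si → CoCl2 to NS-si → CoCl2 was 0.68 ± 0.34. Both arrays of Sp1-silenced cells lay above both arrays of control cells, but Sp1-si → CoCl2 exceeded NS-si by only 0.29 on the log2 scale, which is less than the spot error. CoCl2 gave log2 ratios of -0.39 ± 0.31 with NS-si and -0.59 ± 0.27 with Sp1-si. Without scaling the ratio for Sp1 silencing with CoCl2 was 1.07, past the limit, and the normexp background correction turned it to -0.14 and that for CoCl2 in NS-si cells to 0.09.

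ICAM3 is the ICAM of resting leukocytes, and ICAM4 is the Landsteiner-Wiener blood group protein of red cells. ICAM3 (A_23_P164691) had scaled signals of 925 with NS-si, 745 with Sp1-si, 810 with NS-si → CoCl2 and 565 with Sp1-si → CoCl2. The lowest of these was the array with both treatments, at a log2 ratio of -0.71 to NS-si. Its log2 ratios for CoCl2 were -0.19 ± 0.041 with NS-si and -0.40 ± 0.036 with Sp1-si, and those for Sp1 silencing were -0.31 ± 0.036 without and -0.52 ± 0.040 with CoCl2. ICAM4 (A_23_P130537) had scaled signals of 59.2 with NS-si, 43.3 with Sp1-si, 64.0 with NS-si → CoCl2 and 46.8 with Sp1-si → CoCl2. Both Sp1-silenced arrays lay below both control arrays, with log2 ratios of -0.45 ± 0.071 without and -0.45 ± 0.081 with CoCl2. CoCl2 itself gave 0.11 for ICAM4 in either kind of cells, within about 1.5 times the spot error, and -0.11 in NS-si cells without scaling between the arrays. ICAM1, ICAM4, ICAM5 and ICAM3 lie in that order on chromosome 19, with ICAM1, ICAM4 and ICAM5 as direct neighbours among protein-coding genes, and ZGLP1, FDX2 and RAVER1 between ICAM5 and ICAM3. Only ICAM5 of these 4 genes had a measured log2 ratio of at least 1 in any of the comparisons.

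ICAM5 (telencephalin) is an ICAM of forebrain neurons. On its probe with the highest mean signal (A_23_P119143) the scaled signal was 41.1 with NS-si, 134 with Sp1-si, 213 with NS-si → CoCl2 and 276 with Sp1-si → CoCl2. Each treatment alone, and both together, lay above the control array. CoCl2 gave a log2 ratio of 2.37 ± 0.073 with NS-si, a 5.18-fold difference, and of 1.04 ± 0.074 with Sp1-si, the latter being 0.58 to 1.27 over the alternatives tried. Normexp lowered the ratio with NS-si to 1.53. The log2 ratio for Sp1 silencing was 1.71 ± 0.071 without and 0.38 ± 0.081 with CoCl2. With both treatments the log2 ratio to NS-si was 2.75, against 4.08 for the sum of both single ratios, and the CoCl2 ratio with Sp1-si minus that with NS-si was -1.33 ± 0.11. This difference was -0.88 without scaling and -0.79 with normexp, both short of the limit. The second ICAM5 probe (A_24_P254079) was dimmer and gave part of this pattern. Its scaled signal was 17.1 with NS-si, 17.6 with Sp1-si, 33.5 with NS-si → CoCl2 and 18.98 with Sp1-si → CoCl2. It was higher on the NS-si → CoCl2 array than on the other 3, with a log2 ratio for CoCl2 of 0.97 ± 0.31 with NS-si and 0.11 ± 0.27 with Sp1-si. Sp1 silencing without CoCl2 gave 0.04 ± 0.36 there, and with CoCl2 -0.82 ± 0.34, so the probes differed in whether ICAM5 was higher with Sp1 silencing. The mean of both probes gave 0.87 without and -0.22 with CoCl2. The cause of the difference between the probes was not tested. The ICAM5 promoter window (GRCh38.p14, chr19:10289702-10289951, plus strand) is shown because this member had the largest CoCl2 ratio of the set. It holds 2 GC boxes (capitals) beginning 90 and 67 bases before the start, and 1 match to ACGTG at 166 bases before it, a core that 18.5% of all windows hold.
ICAM5: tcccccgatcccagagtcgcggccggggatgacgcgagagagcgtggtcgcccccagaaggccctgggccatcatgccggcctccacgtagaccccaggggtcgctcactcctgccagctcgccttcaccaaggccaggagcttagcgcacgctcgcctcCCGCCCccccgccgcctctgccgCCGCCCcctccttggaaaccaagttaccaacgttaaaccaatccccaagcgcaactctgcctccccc

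L1CAM, a neuronal adhesion receptor that many carcinomas also express, had the largest ratio for Sp1 silencing among the members both without and with CoCl2, and both of its probes gave the same order of conditions for silencing. On A_24_P207995 the scaled signal was 92.9 with NS-si and 117 with NS-si → CoCl2, against 477 with Sp1-si and 729 with Sp1-si → CoCl2. On A_23_P171324 it was 23.9 with NS-si and 23.5 with NS-si → CoCl2, against 76.5 with Sp1-si and 82.7 with Sp1-si → CoCl2. The Sp1-silenced arrays did not overlap the control arrays on either probe. For the first probe the log2 ratio of Sp1-si to NS-si was 2.36 ± 0.071, a 5.14-fold difference, and that of Sp1-si → CoCl2 to NS-si → CoCl2 was 2.64 ± 0.081, a 6.25-fold difference. The second probe gave 1.68 ± 0.36 without and 1.82 ± 0.34 with CoCl2. The pairs of arrays without and with CoCl2 share no array, so each probe gave this difference in 2 separate pairs. Of the 31437 probes measured without CoCl2, 119 had a ratio as high as that of the first probe or higher (0.379%), and with CoCl2 it was 80 of 30514 (0.262%). CoCl2 gave 0.33 ± 0.073 on the first probe with NS-si and 0.61 ± 0.036 with Sp1-si, and -0.03 ± 0.31 and 0.11 ± 0.074 on the second. The difference between these CoCl2 ratios was 0.28 ± 0.11 on the first and 0.14 ± 0.47 on the second probe. Normexp lowered the ratios of the second, dimmer probe to 0.73 without and 0.40 with CoCl2, and those of the first probe to 1.84 and 1.99. The RefSeq table gives 2 starts for L1CAM that lie 70 bases apart, and the window of the upstream-most start (GRCh38.p14, chrX:153876015-153876264, minus strand) is shown because L1CAM had the largest ratio for Sp1 silencing. It holds 2 GC boxes (capitals) beginning 47 and 35 bases before that start, and 0 matches to ACGTG or to either NFκB element.
L1CAM: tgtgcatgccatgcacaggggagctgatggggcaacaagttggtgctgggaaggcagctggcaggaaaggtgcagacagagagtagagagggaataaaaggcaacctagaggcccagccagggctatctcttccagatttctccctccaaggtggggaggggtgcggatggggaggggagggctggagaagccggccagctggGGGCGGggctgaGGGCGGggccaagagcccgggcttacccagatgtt

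ALCAM, a receptor that binds itself on neighbouring cells and CD6 on T cells, was higher with either treatment alone. On A_23_P41227 the scaled signal was 596 with NS-si, 1379 with Sp1-si, 939 with NS-si → CoCl2 and 862 with Sp1-si → CoCl2. On A_32_P74643 it was 66.8 with NS-si, 109 with Sp1-si, 106 with NS-si → CoCl2 and 74.7 with Sp1-si → CoCl2. NS-si was the lowest array and Sp1-si the highest on both probes. The log2 ratio of Sp1-si to NS-si was 1.21 ± 0.036 on the first and 0.71 ± 0.071 on the second probe, and 0.96 for the mean of both probes. CoCl2 gave 0.66 ± 0.041 and 0.66 ± 0.073 with NS-si, and -0.68 ± 0.036 and -0.54 ± 0.074 with Sp1-si. The CoCl2 ratios were thus of opposite sign in the 2 kinds of cells, and their difference was -1.33 ± 0.052 on the first and -1.20 ± 0.11 on the second probe. With both treatments the log2 ratio to NS-si was 0.53 and 0.16, against sums of the single ratios of 1.87 and 1.37. Sp1 silencing with CoCl2 gave -0.12 ± 0.040 and -0.50 ± 0.081, the first of which became 0.27 without scaling between the arrays. Without scaling the differences between the CoCl2 ratios were -0.88 and -0.76, short of the limit, with every CoCl2 ratio of ALCAM keeping its sign. The ALCAM window (GRCh38.p14, chr3:105366659-105366908, plus strand), shown as that of the member whose CoCl2 ratio changed sign on both probes, holds 1 GC box (capitals) beginning 243 bases before the start.
ALCAM: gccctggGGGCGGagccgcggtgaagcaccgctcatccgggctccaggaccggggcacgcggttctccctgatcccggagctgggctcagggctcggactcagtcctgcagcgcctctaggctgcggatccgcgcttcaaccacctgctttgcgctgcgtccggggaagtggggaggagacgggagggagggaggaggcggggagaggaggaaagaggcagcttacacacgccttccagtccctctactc

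F11R, the junctional adhesion molecule of epithelial tight junctions, differed by less than the limit in all comparisons. On A_24_P319364 the scaled signal was 153154 with NS-si, 122617 with Sp1-si, 194480 with NS-si → CoCl2 and 117478 with Sp1-si → CoCl2. On A_24_P319369 it was 6154 with NS-si, 4474 with Sp1-si, 7727 with NS-si → CoCl2 and 5829 with Sp1-si → CoCl2. NS-si → CoCl2 was the highest array on both probes, and each array of Sp1-silenced cells lay below its control array. The log2 ratio of Sp1-si to NS-si was -0.32 ± 0.025 on the first and -0.46 ± 0.029 on the second probe, and with CoCl2 it was -0.73 ± 0.024 and -0.41 ± 0.024. CoCl2 in NS-si cells gave 0.34 and 0.33, which quantile normalization lowered to 0.003 and 0.24. In Sp1-si cells the probes differed, at -0.06 ± 0.026 and 0.38 ± 0.031, and the first became 0.16 without scaling and 0.04 with scaling to the median.

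For CoCl2 in NS-si cells, 1 of the 11 measured member probes was higher and 0 were lower, against 4.06% and 3.83% of the 31313 probes measured. The member probes had a median log2 ratio of 0.33, and all measured probes one of 0.02. In Sp1-si cells, 1 of 11 was higher and 0 lower, against 3.47% and 5.74% of all probes, with a median of 0.11 for the members and -0.01 for all. The 1 probe was A_23_P119143 of ICAM5 both times. For Sp1 silencing without CoCl2, 4 of 11 were higher and 0 lower, against 5.01% and 5.38% of all probes, with a median of 0.71 for the members and -0.02 for all. These were both L1CAM probes and 1 probe each of ICAM5 and ALCAM, so 4 probes stood for 3 genes. For Sp1 silencing with CoCl2, the 2 L1CAM probes were higher and 0 of 11 were lower, against 6.08% and 9.16% of all probes. The median was then -0.41 for the members and -0.06 for all. Higher in both comparisons for Sp1 silencing were 2 of 11 member probes and 3.42% of the 30234 probes with a usable signal throughout, and lower in both were 0 of 11 and 3.55%. For the difference of the CoCl2 ratios, 0 of 11 lay at 1 or above and 3 of 11 at -1 or below, against 1.05% and 4.87% of all probes. The 3 were both ALCAM probes and 1 ICAM5 probe. The members were named with such values known, and with 2 probes for some genes the probes are not independent, so these shares are descriptions.

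**Figure D2:**
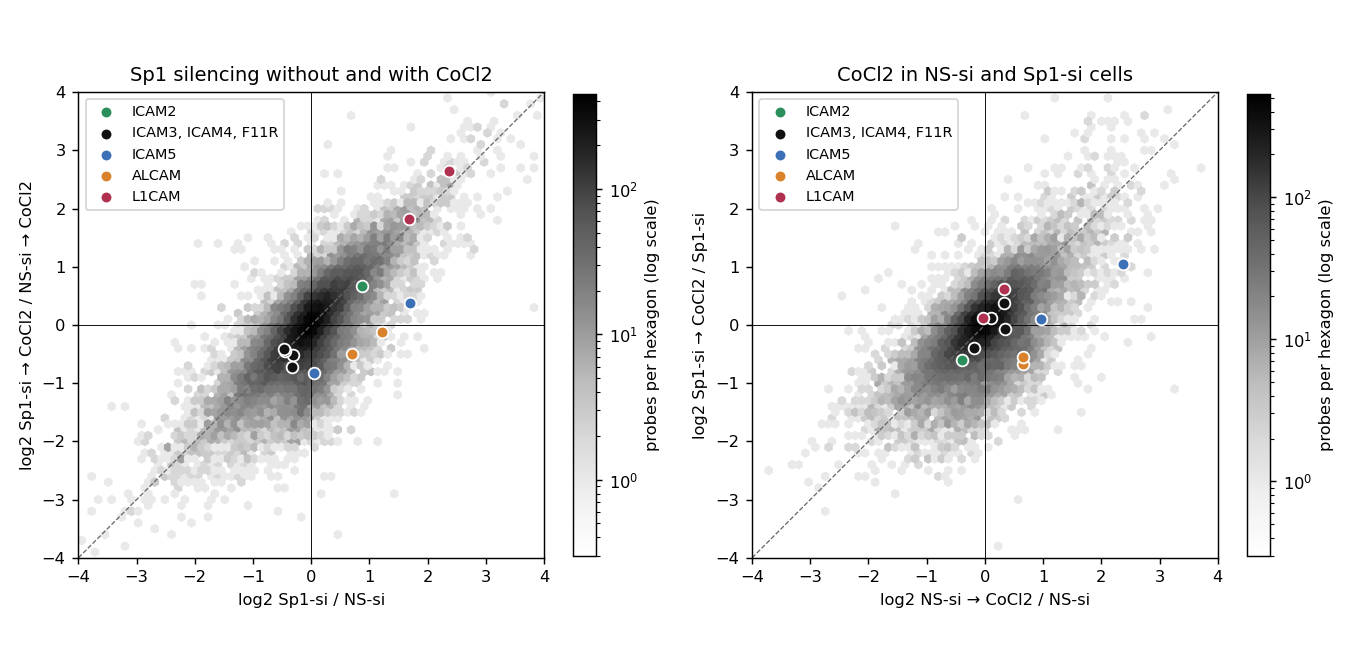
Log2 ratios of the 30234 probes with the well-above-background call throughout (grey hexagons, shaded by number of probes on a log scale) and of the 11 member probes (coloured points), for Sp1 silencing without against with CoCl2 (left, 13 probes beyond the axes) and for CoCl2 in NS-si against Sp1-si cells (right, 6 probes beyond the axes). L1CAM lies near the diagonal at the upper right on the left side, and both ALCAM probes lie below 0 on the vertical and above 0 on the horizontal axis on the right side.

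For the following lists of genes, the shares of all measured probes past the limit for Sp1 silencing were 5.01% higher and 5.38% lower without CoCl2, and 6.08% and 9.16% with it. For CoCl2 the shares were 4.06% higher and 3.83% lower in NS-si cells, and 3.47% and 5.74% in Sp1-si cells. A count of 0 in a list this short is close to those shares. The binding partners of the members were represented by 19 genes, 16 of which were measured throughout. With CoCl2, 0 of these genes differed by the limit in NS-si cells (17 measured) or Sp1-si cells (16 measured). In Sp1-si against NS-si cells 1 of 17 measured genes was lower, ITGB3, an integrin chain that L1CAM binds, with a log2 ratio of -2.59 ± 0.36 and -2.27 on its other measured probe. The list median was -0.11 without and -0.03 with CoCl2, against -0.02 and -0.06 over all probes. For Sp1 silencing with CoCl2, 1 of 16 was lower, the laminin chain gene LAMA4, a ligand of MCAM, at -1.04. ITGB3 was not counted there because its deposited signal of 12.0 with Sp1-si → CoCl2 was not well above background, against 74.9 with NS-si → CoCl2. Of 15 genes for cytoplasmic linkers and scaffolds, all well above background, 1 was higher in Sp1-silenced cells. This was RDX (radixin), which ties receptors such as ICAM1 and L1CAM to the actin cortex, at 1.32 without and 1.93 with CoCl2. Of 9 measured genes for sheddases, 1 was lower in Sp1-silenced than in control cells without CoCl2, and 2 were lower with CoCl2 on both sides. ADAM17, which sheds L1CAM and ICAM1 among others, was at -1.38 without and -1.79 with CoCl2, with its other probe at -1.46 and -1.83, and ADAM10, another sheddase of L1CAM, was at -1.23 with CoCl2.

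Other adhesion receptors of the immunoglobulin superfamily were represented by 23 genes, 9 of which had no array with the well-above-background call. For Sp1 silencing without CoCl2, 3 of 13 measured genes were lower and 0 higher, with a list median of -0.39 against -0.02 over all probes. For Sp1 silencing with CoCl2, 5 of 12 were lower and 0 higher, with a median of -0.55 against -0.06. Over all probes, 5.01% were higher and 5.38% lower without, and 6.08% and 9.16% with CoCl2. NECTIN4 was at -3.22 without and -3.82 with CoCl2, the neural receptor NRCAM at -1.24 and -1.26, and CEACAM1 at -1.02 and -1.88. NECTIN3 (-1.92) and CADM3 (-1.42) were lower in Sp1-si → CoCl2 than in NS-si → CoCl2 cells. For CoCl2 in Sp1-si cells, 3 of 13 measured genes were lower and 0 higher, against 5.74% and 3.47% of all probes. These were NECTIN3, CADM2 and MADCAM1, at -1.77, -1.09 and -1.01, although the other MADCAM1 probe gave -0.03. CADM2 had deposited signals of 33.8 and 18.5 on the arrays of Sp1-silenced cells and was not well above background on those of control cells, at 2.34 and 3.65. In NS-si cells 0 of 13 genes of this list differed by the limit with CoCl2, against 4.06% higher and 3.83% lower of all probes. Among cytokines, receptors and transcription factors that induce ICAM1 and VCAM1, 20 genes were on the array. Of the genes well above background on both arrays of a pair, 0 differed by the limit with CoCl2 in NS-si cells (16 measured) or Sp1-si cells (17 measured). In a list this short, that is close to the shares over all probes given above for CoCl2. The number of genes with the background call was 16 with NS-si, 18 with NS-si → CoCl2, 17 with Sp1-si and 19 with Sp1-si → CoCl2. The count of 0 leaves out genes that passed this call on the CoCl2 array alone. IL1A was one of them, with deposited signals of 6.22 and 1.96 without and 30.2 and 13.2 with CoCl2 in NS-si and Sp1-si cells. With Sp1 silencing, 2 of 16 were higher and 1 lower without CoCl2, and 2 of 18 were higher and 3 lower with CoCl2. IRF1, a transcription factor of the interferon response that binds the VCAM1 and ICAM1 promoters, was higher at 2.57 without and 1.95 with CoCl2. TNF was at 1.33 and 1.36 on its brightest probe and at 0.29 and 0.48 on the other. The interleukin receptor gene IL1R1 was lower at -1.99 and -1.46, with its other probe at -1.03 and -0.67. In Sp1-si → CoCl2 against NS-si → CoCl2 cells, IL1A (-1.59) and the NFκB subunit REL (-1.07) were lower. On the same arrays ICAM1 and VCAM1 were not well above background.

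For 4 members whose brightest probe spanned at least 1 on the log2 scale, the genes with the most similar profile over the 4 arrays were sought among 20926 named probes well above background throughout. Likeness was the Euclidean distance of the 4 log2 signals after each probe was centred on its mean, which with 4 points is a description only. Nearest to L1CAM were MTURN at a distance of 0.13, TLN1 (talin, which links integrins to actin) at 0.15 and DDIT4L at 0.16. For TLN1 this meant log2 ratios for Sp1 silencing of 2.19 without and 2.52 with CoCl2. Nearest to ALCAM were SPOPL (0.095), SLIT2, a ligand of Robo receptors (0.17), and THSD4 (0.18). ICAM5 had no neighbour as near, with ARRDC4 at 0.35, SERPINC1 (antithrombin) at 0.36 and PHLDA1 at 0.37. Nearest to ICAM2 were ALDH7A1 (0.058), UPF3A (0.071) and EXOC6 (0.090).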

How the data were processed

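RNA of 4 conditions was hybridised to 1 array each. Per the labels and headers, the deposited spot intensities came from Agilent Feature Extraction 10.5.1.1, after background subtraction and detrending within each array per the file headers, together with calls per spot. The deposited value table holds the same intensity times 1 constant per array, and the paper's methods name no normalization. Log2 values were computed here from the deposited intensities, minus the 75th percentile of non-control spots, leaving out outlier spots and taking the mean of repeated spots. Where at least 50% of the kept spots carried the well-above-background call, the probe did. Symbols came from RefSeq accessions, which matched 28463 of 29877 spots with one. The array annotation uses build hg18, so array coordinates are not given, and promoter windows are those of GRCh38.p14. Spot errors come from 264 probes with 10 spots in 5 bins of signal. With 1 array per condition no test was run. Groups came from the source labels.

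Named were all members with every probe, of each other list up to 6 genes per comparison with a log2 ratio of at least 1 in size on the brightest probe, the 3 nearest profiles of members spanning at least 1, and SP1, VEGFA and HMOX1. The members and lists were chosen with earlier results of these data known. Some marker genes are not reported here. Calling was tested on simulated arrays. Alternatives were other scalings, the authors' table, other filters, gene means, a 1.5-fold limit and normexp with an offset of 50. Python 3.11.15, numpy 2.4.6, pandas 2.3.3, matplotlib 3.10.9, R 4.3.3 and limma 3.58.1 were used.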

Additional observations from a re-analysis of the deposited data

Results flagged for a closer look

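For 3 member probes the log2 CoCl2 ratios with NS-si and with Sp1-si had opposite signs, each by more than the SD between spots of like signal. The difference, Sp1-si minus NS-si, was -1.33 for ALCAM probe A_23_P41227, -1.20 for ALCAM probe A_32_P74643 and -0.41 for F11R probe A_24_P319364. With 1 array per condition this difference was not tested. For ALCAM both probes kept opposite signs under every alternative tried. The F11R ratio with Sp1-si turned positive without scaling, with scaling to the median and in the mean of both probes. The F11R ratio with NS-si on this probe fell to 0.003 with quantile normalization, and the second F11R probe gave a difference of 0.05.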

How the results depend on the processing

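With 1 array per condition no replicate could be left out, and no paired analysis was possible because the groups share no more than 1 replicate number. No log2 ratio of a member at or beyond 1 in size changed sign under the alternatives run. Without scaling, the median over all measured probes moved by -0.23 for CoCl2 in NS-si cells, 0.22 for CoCl2 in Sp1-si cells, 0.40 for Sp1 silencing with CoCl2 and 0.45 for the difference of the CoCl2 ratios. The number of member probes at or below -1 in that difference then fell from 3 to 0, and with normexp it was 1. Normexp was run on the median spot signals in place of the planned mean signals, a choice made after seeing the data. For CoCl2 in Sp1-si cells, the 1 higher probe was lost in the authors' value table, with normexp and with the mean over the probes of a gene (0 each). At a limit of 1.5-fold, 4 probes were higher with CoCl2 in NS-si cells, 2 were higher and 2 lower with CoCl2 in Sp1-si cells, and 2 were lower for Sp1 silencing with CoCl2. Counted by the mean over the probes of a gene, 1 gene (L1CAM) was higher with Sp1 silencing without CoCl2 and 1 with CoCl2. Normexp left 1 probe higher for Sp1 silencing with CoCl2.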
